A study of Mus musculus with 3 samples.

Results

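The keratin and epidermal differentiation genes were examined in RNA of the mouse dentate gyrus, a hippocampal region rich in granule neurons. Members were all rows of the deposited table whose symbol begins with Krt followed by a digit, or with Krtap, Lce or Sprr. They numbered 140 of 24458 rows and carried 139 symbols, because Sprr2a2 stood on 2 rows. There were 52 keratin (Krt), 52 keratin-associated protein (Krtap), 21 late cornified envelope (Lce) and 15 small proline-rich (Sprr) rows. The rule used names only and no measured value. The study as a whole examined chromatin accessibility and RNA after neuronal activation. The 3 libraries used here share the label E24, the strain C57BL/6 and an age of 8 weeks, and each was made from 1 animal. The labels do not spell out E24 and give no genotype, sex or treatment, and with 1 group no conditions were compared. The p-values below measure only the spread between these 3 libraries. In bulk tissue, fewer cells of a type and less RNA per cell cannot be told apart.

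Keratins are the intermediate filament proteins of epithelia. Type I keratins, encoded mostly on mouse chromosome 11, pair with type II keratins, encoded on chromosome 15, and each epithelium uses its own pairs. Keratin-associated proteins embed the keratins of the hair shaft, and late cornified envelope and small proline-rich proteins are cross-linked into the shell of dying keratinocytes. Neurons build neurofilaments and astrocytes build glial fibrillary acidic protein filaments instead.

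Values are RPKM, reads per kilobase of gene scaled to the reads mapped in the library, so levels are per length. The table sums to 384523, 369261 and 350942 RPKM in replicates 1, 2 and 3, and the read depth is unknown. At many rows a value of one library has its like in another library some rows away. In the 4 largest member loci and their 5 flanking rows on each side, 22 values of replicate 1 were at 5 RPKM or more. Of these, 2 had a value within 10% at the same row of replicate 2, 11 had one only at another row up to 10 positions away, and 9 had none. Against replicate 3 these counts were 2, 9 and 11. Of 19 such values of replicate 2, 8 had their like at the same row of replicate 3. A further 6 had it only at another row and 5 nowhere. Values of replicate 1 thus had their like at the same row less often. A difference in level at a row also counts as no match there. On chromosome 16, 0 of 4 values of replicate 1 matched at the same row, among them Sod1 at 266.2, 202.4 and 197.4 RPKM. What part such differences have in the counts was not tested. How often unrelated values lie within 10% of each other was not tested either. Values are therefore ascribed to rows, each called by its symbol, and no level of a single gene is stated. A row's 3 values need not belong to 1 gene, and a test of a row compares the values listed there. Interiors of clusters were kept apart from their edges for the same reason. A row was called interior when every row within 5 positions was a member, which left 19 rows. A wider interior, added after seeing the data, took members at least 5 rows inside a run of members that could hold gaps of up to 6 other rows. It held 107 rows.

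Promoter windows were searched for 3 motifs, which the rule did not use. RefSeq windows of 250 bases before and 50 after the start (GRCm38.p6) were found for 114 of the 139 symbols. The motif TATAAA, read on both strands, stood in 72 of them, or 63.2%, against 14.2% of 27025 windows of all genes. It stood in 94.7% of the Krtap windows of chromosome 11, 72.7% of those of chromosome 16 and 83.3% of the Sprr windows. The share was 65% for Krt on chromosome 11, 40% for Krt on chromosome 15 and 20% for Lce. The motif TGANTCA takes any letter at N and so is wider than the site bound by AP-1 factors. It was in 9 of 12 Sprr windows, or 75%, against 7.93% of all windows and 0 of 20 Lce windows. In Krt windows it was in 1 of 20 on chromosome 11 and 0 of 15 on chromosome 15, and over all members in 16.7%. CCAAT was in 35.1% of member windows and 37.9% of all windows. It does not overlap TATAAA in the windows printed. The median number of CG pairs was 1 in Lce, 1.5 in Sprr and 1 in chromosome 11 Krtap windows, 6 in chromosome 15 Krt windows and 7 in all windows. The median share of G and C letters was 45.3% in member windows and 52.7% in all windows, and the motif shares were not adjusted for it. A match is a description of letters and not of a bound site.

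These 4 windows, chosen after their letters were seen, show where the motif lies in 1 gene of each family. Capitals mark TATAAA and, in Sprr2h, also TGANTCA, and each sequence runs 5′ to 3′ on the gene's strand. They are chr11:99389315-99389614 (minus strand) for Krt10, chr11:99628190-99628489 (minus strand) for Krtap4-1, chr3:92385435-92385734 (plus strand) for Sprr2h and chr3:92687161-92687460 (minus strand) for Lce1d, all in GRCm38.p6.
Krt10: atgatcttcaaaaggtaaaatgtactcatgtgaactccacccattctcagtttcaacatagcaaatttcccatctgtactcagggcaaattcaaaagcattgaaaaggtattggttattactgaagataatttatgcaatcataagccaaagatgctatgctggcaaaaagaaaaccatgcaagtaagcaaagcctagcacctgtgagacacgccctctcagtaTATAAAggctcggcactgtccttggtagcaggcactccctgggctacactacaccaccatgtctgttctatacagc
Krtap4-1: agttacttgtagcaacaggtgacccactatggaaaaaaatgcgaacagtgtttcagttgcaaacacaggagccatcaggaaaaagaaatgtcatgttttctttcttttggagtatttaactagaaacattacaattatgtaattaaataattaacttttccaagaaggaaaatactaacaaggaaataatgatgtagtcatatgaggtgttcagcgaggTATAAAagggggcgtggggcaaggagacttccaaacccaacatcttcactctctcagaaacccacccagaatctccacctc
Sprr2h: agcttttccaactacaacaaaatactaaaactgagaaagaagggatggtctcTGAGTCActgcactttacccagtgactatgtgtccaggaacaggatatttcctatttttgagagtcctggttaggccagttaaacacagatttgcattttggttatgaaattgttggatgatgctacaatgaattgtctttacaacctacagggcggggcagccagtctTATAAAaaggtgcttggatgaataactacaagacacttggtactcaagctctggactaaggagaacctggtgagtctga
Lce1d: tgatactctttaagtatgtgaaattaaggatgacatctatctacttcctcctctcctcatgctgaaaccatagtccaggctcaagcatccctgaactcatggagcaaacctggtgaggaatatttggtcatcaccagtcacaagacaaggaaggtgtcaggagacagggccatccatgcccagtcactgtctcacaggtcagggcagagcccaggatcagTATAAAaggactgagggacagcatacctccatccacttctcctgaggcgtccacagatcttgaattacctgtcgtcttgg
TATAAA begins 26, 31, 29 and 30 bases before the start in Krt10, Krtap4-1, Sprr2h and Lce1d. The rows of Krtap4-1, Sprr2h and Lce1d were listed at 0 RPKM in every library, and that of Krt10, a keratin of the upper epidermis, held 0.0133, 1.20 and 1.32 RPKM.

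**Figure D1:**
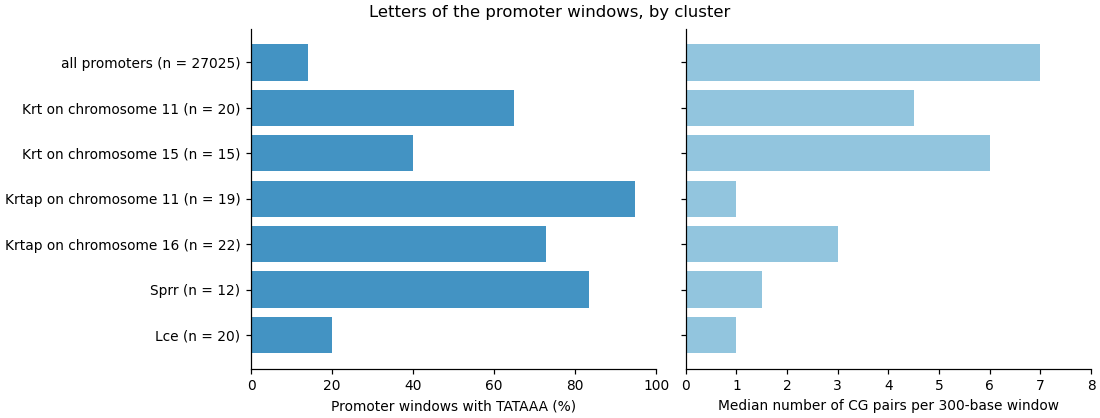
Left, the percentage of 300-base promoter windows that hold TATAAA on either strand; right, the median number of CG pairs per window. Bars are groups of genes with the number of windows in parentheses; TATAAA stood in 94.7% of the chromosome 11 Krtap windows and 20% of the Lce windows, against 14.2% of all windows.

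Few members had RNA values in any library. Of the 140 rows, 88 were listed at 0 in all 3 libraries, or 62.9%, against 18.8% of the whole table. Only 5 members were at 1 RPKM or more in every library, where 32.4% of all rows were, and 32 were so in at least 1 library, where 67.0% of all rows were. Per library, 18, 16 and 16 members reached 1 RPKM, or 11.9% ± 0.825 (SD, n = 3), against 49.7% ± 0.437 of all rows. The members made up 0.572% of the rows and 0.0769%, 0.142% and 0.119% of the summed RPKM in replicates 1, 2 and 3.

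Against a level of 1 RPKM, 1 of the 52 members tested lay above and 19 below (limma, adjusted p under 0.05 over all 19860 rows not 0 in every library). Of all tested rows, 22.8% lay above and 13.9% below. The 88 members listed at 0 throughout did not enter this test. Without replicate 1 the counts were 4 above and 10 below, a pseudocount of 0.1 gave 3 above, and with all rows entered 107 lay below. The row above was that of Krt85, a type II hair keratin, at 4.21, 5.05 and 5.52 RPKM, with a limma adjusted p of 0.0394. Its locus in the table, on chromosome 15 from 101346118 to 101521940 (mm9), spans several neighbouring keratin loci.

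**Figure D2:**
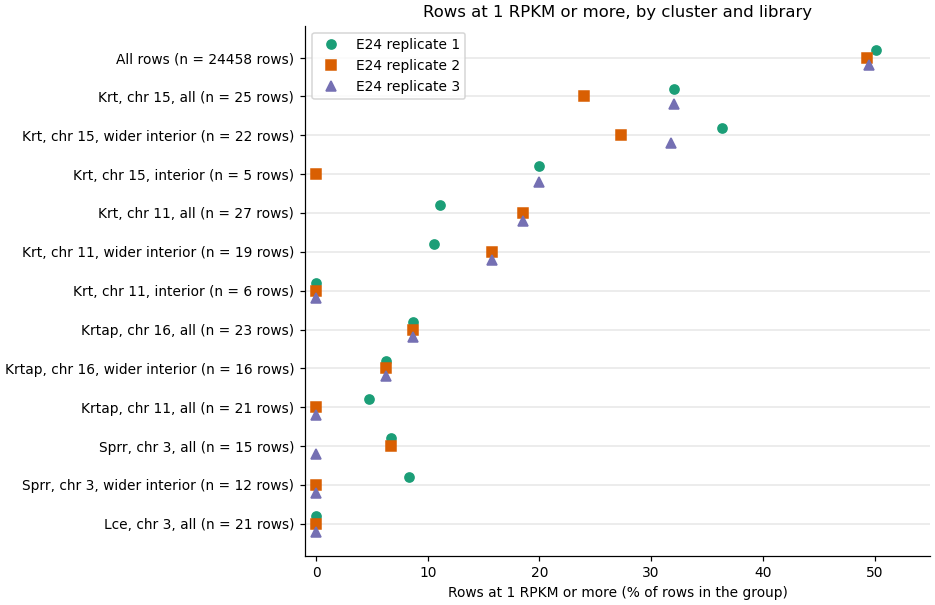
Percentage of rows at 1 RPKM or more (x axis) in the whole table and in each cluster, its wider interior and its interior (y axis, with the number of rows); each point is 1 library. Over all its rows each cluster shown lies left of the whole table, whose mean is 49.7%, with Krt on chromosome 15 at 29.3%, Sprr at 4.44% and Lce at 0%.

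The late cornified envelope rows were the emptiest. All 21 Lce rows, from Lce6a to Lce1m, were listed at 0 in every library. Their neighbours of the Sprr family, small precursors of the same envelope, had 11 of 15 rows listed at 0. Of the other 4, the row of Sprr2g held 15.7, 0 and 0 RPKM and one Sprr2a2 row 0, 6.95 and 0 RPKM. Each was high in 1 library only, and both lie near the start of the run. The Sprr4 row held 0.262, 0 and 0 RPKM and the Sprr1a row 0, 0 and 0.242 RPKM. These rows are neighbours in the table, and each had its only value in a different library. Both lay below 1 RPKM, with limma adjusted p of 0.00928 for Sprr4 and 0.00777 for Sprr1a.

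The longest stretch of rows under 1 RPKM in every library in this locus ran from Sprr2f to Rptn. It held 41 consecutive rows, 30 of them members, and 38 were at 0 throughout. The highest value among these rows was 0.262 RPKM. Table order is not genomic order: the members of the stretch span chromosome 3 from 92169108 to 92822982 (mm9), or 654 kb, and the locus of Sprr2g lies within that span. With rows in genomic order the stretch held 40 rows. Across the whole table there were 3471 such stretches with a median of 1 row, and 9 were as long or longer. At its end, the Tchhl1 row held 0, 5.67 and 5.95 RPKM and the next row, S100a11, held 6.18, 0 and 0 RPKM. The 3 values are close, but those of replicates 2 and 3 stand at one row and that of replicate 1 at the next. A similar set followed, with 12.9 RPKM at Tdpoz2 in replicate 2, 13.1 at S100a10 in replicate 3 and 15.5 at Tdpoz1 in replicate 1.

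Type I keratins and the Krtap genes among them formed the longest low stretch of the 4 loci. It ran from Krt20 to Krt42 on chromosome 11 and held 52 rows consecutive in the table, 35 of them members. The loci of these members span 841 kb from 99289716 to 100131185 (mm9), a span that also holds the loci of Krt39, Krtap3-3, Krt17 and Krt9, whose rows stand outside the stretch and reached 1 RPKM. With rows in genomic order the stretch held 45 rows. Of all such stretches, 4 were as long or longer. Of its rows, 43 were at 0 throughout and the highest value was 0.430 RPKM, at Krt42 in replicate 2. The stretch holds 7 type I hair keratins, Krt31, Krt32, Krt33a, Krt33b, Krt34, Krt35 and Krt36, of which 5 were listed at 0 and Krt33a and Krt33b had 1 value each, of 0.0392 and 0.0325 RPKM. It also holds the basal keratins Krt14 and Krt15, the partners of Krt5 in the dividing layer of epidermis, both at 0 throughout. The Krt19 row, a keratin of simple epithelia, held 0.0320, 0 and 0 RPKM (limma adjusted p = 0.000644, below 1 RPKM).

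Of the 21 Krtap rows on chromosome 11, 16 were at 0 throughout and 1 reached 1 RPKM. That was Krtap3-3, of the high-sulfur hair proteins, at 5.60, 0 and 0 RPKM, 2 rows from Krt39, a hair keratin with 1.88, 0 and 0 RPKM. The Krt12 row, 4 rows from Krtap3-3, held 2.45, 6.60 and 5.89 RPKM. Krt12 is known as the keratin of the corneal epithelium. It was the only chromosome 11 member at 1 RPKM or more in every library, and it did not pass the test against that level (limma adjusted p = 0.0868).

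High values on chromosome 11 stood at both ends of the run. At the first end the Krt222 row held 18.8, 0 and 0 RPKM and the Krt25 row, of an inner root sheath keratin, 0, 20.2 and 5.25 RPKM. The Cdc6 row, 2 rows before Krt222, held 0.0220, 0 and 20.8 RPKM. At this end each library thus had 1 value between 18.8 and 20.8 RPKM, at 3 different rows. This range was drawn after the values were seen. At the other end the Krt9 row, of a palm and sole keratin, held 0.141, 299.2 and 273.2 RPKM, the highest member values in the table. Replicate 1 had 290.1 RPKM at the Leprel4 row 2 positions on, where the others had 0.144 and 0.121 RPKM. Between them stood the row of Eif1, a translation initiation factor, with 5.88, 4.74 and 4.36 RPKM. The Krt17 row, of a keratin of skin appendages, held 0.0257, 11.8 and 10.3 RPKM.

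**Figure D3:**
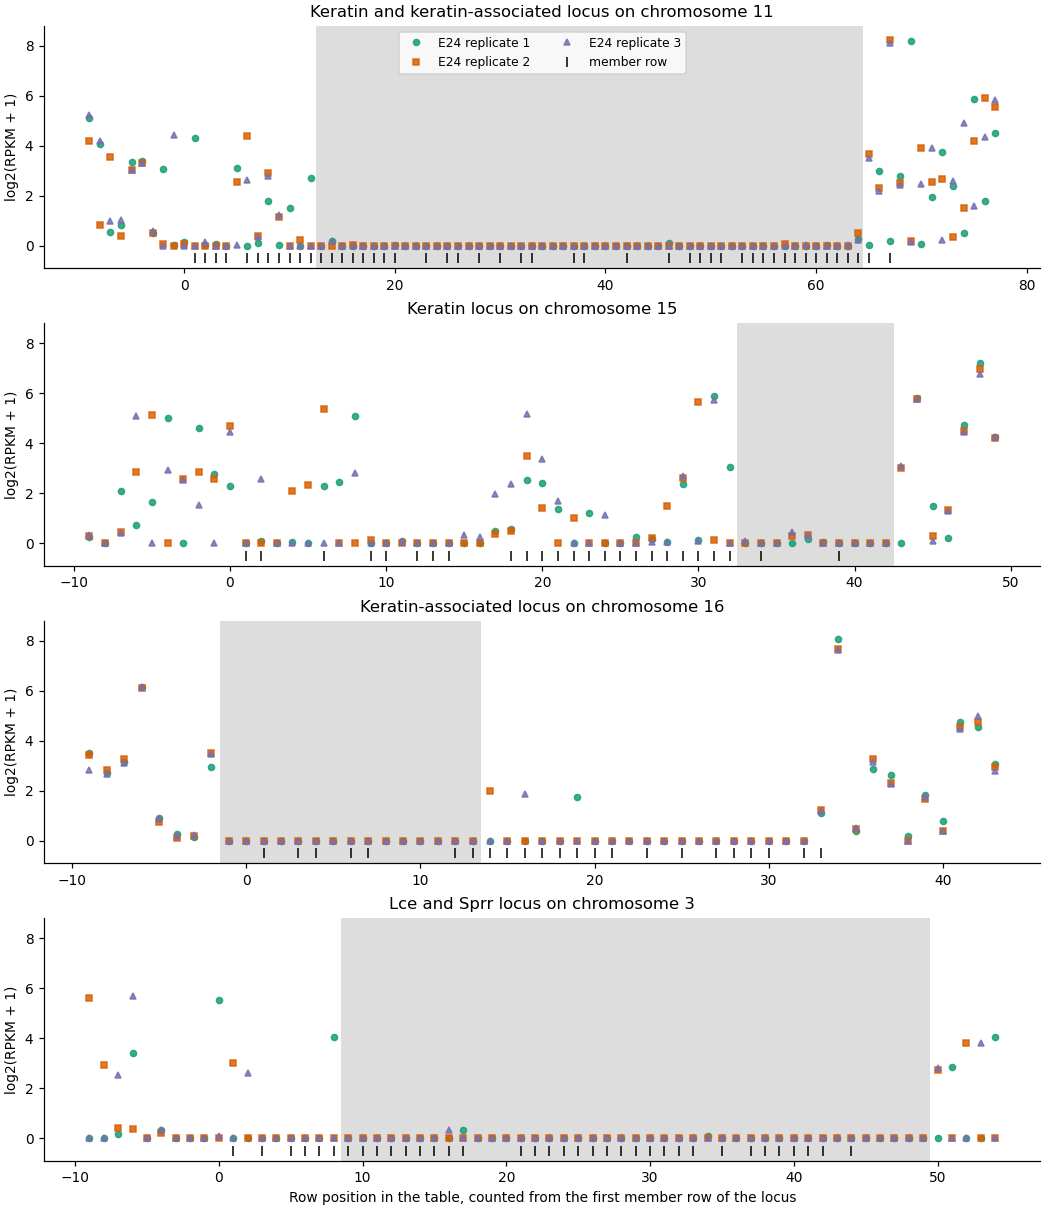
Level of each row, as log2(RPKM + 1), against its position in the table, counted from the first member row of each locus, with 10 rows on either side; symbols are the 3 libraries, black ticks mark member rows and grey marks the longest stretch under 1 RPKM in every library. The stretches hold 52 rows on chromosome 11, 10 on chromosome 15, 15 on chromosome 16 and 41 on chromosome 3. High values gather at the ends, except on chromosome 15, where they also lie inside. On chromosome 16, values of 2.32 to 2.91 RPKM lie inside the run.

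The keratins of chromosome 15, type II except for Krt18, had the most values among the larger clusters. Of these 25 rows, 7 were at 0 throughout, 13 reached 1 RPKM in at least 1 library and 3 in all, namely Krt73, Krt76 and Krt85. The Krt73 row, of an inner root sheath keratin, held 4.83, 10.2 and 35.2 RPKM and the Krt76 row, of an oral keratin, 4.32, 1.67 and 9.20 RPKM. The spread between libraries was wide at both, and neither passed against 1 RPKM (limma adjusted p of 0.0597 and 0.171). The longest stretch under 1 RPKM here had 10 rows with 2 members, Krt75 and Krt6b, and 107 stretches of the table were as long or longer.

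High values of roughly similar size stood at different rows of this locus in different libraries. The Krt6a row, of a keratin induced in wounded skin, held 58.8, 0.0869 and 51.8 RPKM, and the adjacent Krt82 row, of a hair keratin, 0.0793, 49.1 and 0.0716 RPKM. Every library thus had 1 value between 49.1 and 58.8 RPKM in these 2 rows, at Krt6a in replicates 1 and 3 and at Krt82 in replicate 2. Within the run a value between 33.2 and 40.6 RPKM also occurred once per library, at Gm6042 in replicate 1, Krt86 in replicate 2 and Krt73 in replicate 3. Before the run, Slc4a8 held 34.3 RPKM in replicate 2 and Acvrl1 33.5 RPKM in replicate 3, also in this range. Both ranges were drawn after the values were seen and are wider than the 10% used above. The Gm6042 and Krt73 rows also lie more than 10 positions apart. Sorted by size, the highest 2 values within the run were 58.8 and 33.2, 49.1 and 40.6, and 51.8 and 35.2 RPKM in replicates 1, 2 and 3.

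The keratin rows were also grouped by the epithelium that uses them, with groups formed after values were seen. Over all Krt rows, 20 of 52 reached 1 RPKM in at least 1 library, where 67.0% of the whole table did. Of the 5 keratins of simple epithelia, Krt7 and Krt20 were at 0 throughout, Krt8 held 0.192, 0 and 0 RPKM, Krt18 held 0.0390, 1.83 and 0.0234 RPKM, and Krt19 is given above. Krt8 and Krt19 lay below 1 RPKM, Krt8 with a limma adjusted p of 0.00463. Of the 5 suprabasal keratins of epidermis and sole, none was at 0 throughout and 4 reached 1 RPKM in some library. Among them Krt1, the usual partner of Krt10, held 0.0168, 0 and 0 RPKM (limma adjusted p = 0.000644, below 1 RPKM). The basal keratin Krt5 held 0.470, 0.396 and 4.16 RPKM. Of the 5 keratins of stress and skin appendages, 2 reached 1 RPKM in some library, Krt6a and Krt17. Of the inner root sheath keratins 1 of 4 of type I did so, Krt25, and 1 of 4 of type II, Krt73. Of the 6 type II hair keratins 4 reached 1 RPKM in some library, and 1 lay above and 1 below that level. Of the 9 type I hair keratins 1 reached it in some library, and 0 lay above and 3 below (limma, with 0 above at an unadjusted p under 0.05). Over all tested rows 22.8% lay above and 13.9% below.

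**Figure D4:**
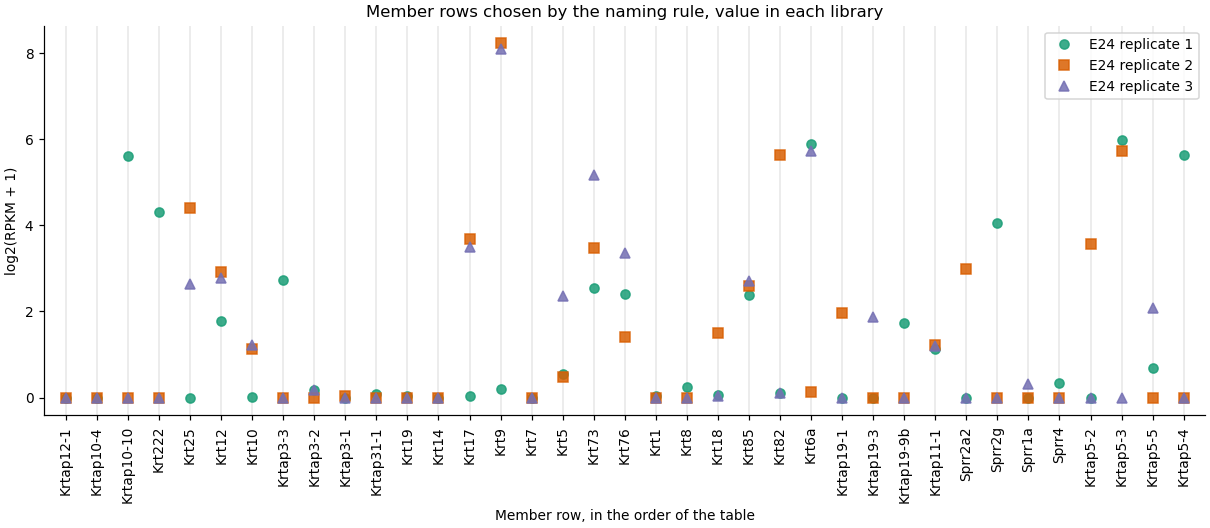
Value of each member row chosen by the naming rule (x axis, in table order) as log2(RPKM + 1) in the 3 libraries. At many rows 1 library is high and the others are at or near 0, as at Krt222 and Krt82, while Krt85 and Krtap11-1 have 3 close values.

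The Krtap genes of chromosome 16 encode further proteins of the hair shaft. Of their 23 rows, 19 were at 0 throughout, and each library had 2 rows at 1 RPKM or more. One was Krtap11-1, a hair matrix protein at the end of the run, with 1.18, 1.32 and 1.30 RPKM. The other was 2.32 RPKM at Krtap19-9b in replicate 1, 2.91 at Krtap19-1 in replicate 2 and 2.69 at Krtap19-3 in replicate 3. These 3 rows lie within 6 positions of each other, and each had a value in 1 library. The row after Krtap11-1, that of the superoxide dismutase Sod1, held 266.2, 202.4 and 197.4 RPKM, so that the level rose from the run to its neighbour in 1 step in all 3 libraries. Between the flanks and these values lay stretches of 15 and 13 rows at 0 throughout. Stretches under 1 RPKM of 15 rows or more numbered 58 in all.

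The small Krtap groups had no interior. On chromosome 7 the Krtap5-3 row held 62.4, 51.7 and 0 RPKM, Krtap5-4 held 48.6, 0 and 0, Krtap5-2 held 0, 10.9 and 0, and Krtap5-5 held 0.612, 0 and 3.25 RPKM. Krtap5-1 was at 0 throughout. High rows adjoin this run, and the Tmem80 row, 3 rows before it, held 13.8, 58.7 and 50.6 RPKM. On chromosome 10 the Krtap10-10 row held 47.8, 0 and 0 RPKM and the other 2 rows were at 0 throughout. The Gm3285 row, 2 positions beyond, held 52.3, 0 and 0 RPKM.

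Cluster interiors lay below the mean of all rows. The mean log2(RPKM + 1) of each interior minus that of all rows was tested against 0 beside 1215 blocks of 20 rows outside the interiors. Edge members are among the rows of these blocks, and each interior holds fewer rows than a block. The ranks among blocks were not adjusted for either. All 4 interiors that could be tested were lower (limma, adjusted p under 0.05), and so were 36.9% of all units tested, with 44.5% higher. Krt on chromosome 11 deviated by -1.86 ± 0.03 (SD, n = 3) over 6 rows, with a limma adjusted p of 4.56e-05. Lce and Sprr deviated by -1.88 ± 0.01 over 6 rows, all at 0, with the same adjusted p. Krt on chromosome 15 deviated by -1.67 ± 0.14 over 5 rows, with a limma adjusted p of 0.000146, and by -0.62 with rows in genomic order (limma adjusted p = 0.0662). Of the 1215 blocks, 23 lay below the chromosome 11 interior and 63 below that of chromosome 15. The Lce and Sprr interior sits at 0, the floor of the scale, so that no block could lie lower and its SD is only that of the mean of all rows. A further 16 blocks sit at the same value. Without replicate 1 the deviations of the 4 interiors ranged from -1.87 to -1.73, with limma adjusted p from 0.00317 to 0.00593.

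The Krtap interior of chromosome 11 held 2 rows, Krtap3-3 and Krtap3-2. Their mean was lower by a difference of -1.36 ± 0.80 (limma adjusted p = 0.0222), and at -1.11 without replicate 2 it missed the threshold (limma adjusted p = 0.0507). Krtap on chromosome 16 had no interior row under this definition, since unnamed and RIKEN genes stand among its members.

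The wider interiors gave values for all 5 clusters. Krtap on chromosome 11 deviated by -1.83 ± 0.07 over 21 rows, Krtap on chromosome 16 by -1.76 ± 0.02 over 16 rows, and Lce and Sprr by -1.82 ± 0.07 over 29 rows. Krt on chromosome 11 deviated by -1.53 ± 0.16 over 19 rows and Krt on chromosome 15 by -0.87 ± 0.01 over 22 rows (SD, n = 3). The limma adjusted p ranged from 4.89e-05 to 0.000222, and 36.9% of the units in that fit were lower. Of 1209 blocks, 181 lay below Krt on chromosome 15 and 82 below Krt on chromosome 11, against 29 to 41 for the other 3.

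**Figure D5:**
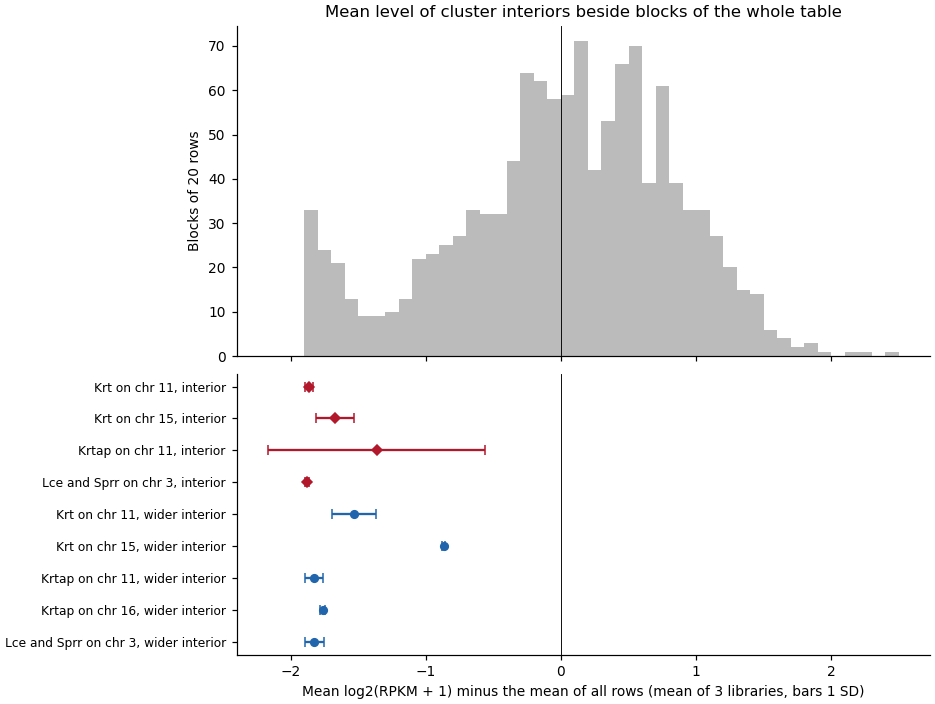
Top, number of blocks of 20 rows by their mean log2(RPKM + 1) minus the mean of all rows; bottom, the same deviation for each cluster interior (diamonds) and wider interior (circles), as the mean of 3 libraries with bars of 1 SD. All points lie left of 0, with Krt on chromosome 15 moving from -1.67 in its interior to -0.87 in its wider interior.

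Krt edges were higher than Krt interiors on both chromosomes, in every library. Edge rows are members with a row that is no member within 5 positions. On chromosome 11 Krt edge rows had a mean log2(RPKM + 1) of 0.77 ± 0.33 and interior rows 0.02 ± 0.02, a difference of 0.76 ± 0.31 (SD, n = 3). On chromosome 15 they had 1.10 ± 0.08 and 0.20 ± 0.15, a difference of 0.90 ± 0.18. For Lce and Sprr the difference was 0.09 ± 0.07, which could not be negative because every interior row is at 0. With 3 animals the exact sign-flip permutation test (two-sided) cannot go below p = 0.25, which each of these 3 reached, or 0.333 adjusted over the 4 clusters. For Krtap on chromosome 11 the edge minus interior difference was -0.51 ± 0.81 (exact permutation p = 0.5, 0.5 adjusted). With the wider interior the chromosome 15 difference turned to -0.72, and that of Lce and Sprr turned to -0.042 with interiors of 3 positions, so that the direction depends on where the edge is drawn.

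The clusters were compared in 9 within-animal differences. Over all member rows, Krt on chromosome 15, at 0.92 ± 0.06, was higher than Krt on chromosome 11, at 0.61 ± 0.26, in every library, by 0.32 ± 0.25 (SD, n = 3). It was 0.85 ± 0.12 above Lce and Sprr, and Krt on chromosome 11 was 0.53 ± 0.30 above them and 0.55 ± 0.34 above its neighbouring Krtap rows. Each of these 4 held in all 3 animals with an exact sign-flip permutation p of 0.25, or 0.45 adjusted over the 9. Krtap on chromosomes 11 and 16 differed by -0.08 ± 0.09 (exact permutation p = 0.5, 0.5 adjusted). Among interior rows, Krt on chromosomes 11 and 15 differed by -0.19 ± 0.17, with 1 of 3 animals in the other direction (exact permutation p = 0.5, 0.5 adjusted).

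Rows that stand within the runs but whose loci lie outside them were examined as well. There were 14 rows whose mm9 locus lies outside the span of the members. Some are near neighbours of that span, such as Gast at 64.5 kb and Lelp1 at 73.1 kb from it. Cacna1g and Rara among the chromosome 11 rows and Bach1 and Grik1 among the chromosome 16 rows were each listed at 0 in all 3 libraries. Cacna1g encodes a calcium channel and Grik1 a kainate receptor, both genes of neurons, and their loci lie 4759 kb and 320 kb from the nearest member. Kmt2d, a histone methyltransferase, held 0.0477, 0 and 0.0254 RPKM among the chromosome 15 rows, and its locus lies 2478 kb away. Others had values: Gast held 6.87, 4.01 and 3.61 RPKM, Tns4 7.73, 4.90 and 0.0287, Nr4a1 0.0418, 3.22 and 0, Grasp 0.413, 0.274 and 2.96, and Lelp1 0, 0 and 5.13 RPKM. Rows of both kinds thus stand among the members.

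Other genes of the epidermal differentiation complex on chromosome 3 were mostly listed at 0. Of 15 listed genes of the complex outside the rule, 14 were found and 11 were at 0 throughout, where 18.8% of all rows were, among them the envelope genes Lor and Ivl and the filaggrin relatives Flg2, Hrnr and Rptn. None lay above 1 RPKM and 1, Kprp, lay below (limma, with 0 above at an unadjusted p under 0.05). The Tchhl1 and Lelp1 rows, given above, were the only ones of the list to reach 1 RPKM in any library. Of the 13 S100 calcium-binding genes that flank the complex, 3 lay above 1 RPKM by limma, near the 22.8% of all tested rows, including S100a1 at 45.4, 33.5 and 33.2 and S100a14 at 22.9, 34.6 and 37.6 RPKM. S100a9 was at 0 throughout.

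Cornification and desmosome genes lie on many chromosomes, and 1 of 21 lay above and 2 below 1 RPKM (limma), where 22.8% and 13.9% of all tested rows did. A further 16 were not called and 2 were at 0 throughout and not tested. Few calls are not low levels here, since 16 of the 21 reached 1 RPKM in at least 1 library. Of all rows 67.0% did. Their highest rows were Cdsn at 78.3, 1.44 and 0.0328, Dsp at 0.325, 40.1 and 38.9, and Ppl at 62.7, 11.9 and 0.807 RPKM. Of 10 epithelial regulators 1 lay above, Grhl2 at 64.0, 60.5 and 63.9 RPKM, and the Ovol1 row held 0.0530, 502.3 and 0.0655 RPKM. Intermediate filament rows of other types had 2 of 16 above and 1 below, with 9 at 1 RPKM or more in every library, where 32.4% of all rows were. The neurofilament row Nefl held 232.3, 9.20 and 160.3, the lamin row Lmnb2 218.7, 8.98 and 7.83, and the astrocyte filament row Gfap 1.11, 198.9 and 186.5 RPKM.

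The tissue label was checked against marker rows. These lists were not tested against all tested rows, of which 22.8% lay above 1 RPKM, and their counts do not settle the label. Of 5 granule neuron rows 1 lay above 1 RPKM (limma), Calb1 at 7.18, 91.3 and 89.8 RPKM, and the list summed to 17.8, 456.0 and 137.6 RPKM. Of the others, Neurod1 held 8.00, 284.8 and 8.43, Prox1 1.58, 39.3 and 0, and C1ql2 0.698, 0.476 and 0.462 RPKM. The Dsp row is given above. Keratinocyte rows (Krt5, Krt14, Krt1, Krt10 and Lor) summed to 0.50, 1.59 and 5.48 RPKM, with Krt14 and Lor at 0 throughout. Choroid plexus rows had 0 of 6 above by limma, with 1 at an unadjusted p under 0.05, and summed to 186.8, 6.85 and 4.85 RPKM. Folr1 held 69.2, 0 and 0.149, Ttr 55.3, 1.15 and 0.396, and Clic6 47.2, 0 and 0.0837 RPKM, each high in replicate 1 only. Kl held 14.8, 3.88 and 4.20 RPKM, and Krt8 and Krt18 of this list, given above, were under 1 RPKM in replicate 1. Astrocyte, ependyma and meningeal fibroblast rows had 1 of 4, 1 of 4 and 0 of 4 above 1 RPKM (limma, with 0 of the last at an unadjusted p under 0.05). The astrocyte row Aldoc lay above, at 4.93, 4.12 and 4.49 RPKM (limma adjusted p = 0.0491). Aqp4 lay below, at 0.00793, 0 and 0 RPKM (limma adjusted p = 0.000644). Slc1a3, at 2.08, 0 and 1.81 RPKM, was not called, nor was Gfap, given above. The astrocyte rows summed to 8.13, 203.0 and 192.8 RPKM. What part these cells have in the member values was not tested.

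Near-identical copies limit what a value says of 1 gene. Of 138 member symbols with a GENCODE transcript, a median of 5.08% of the 50-base windows of a gene's transcripts also occurred in transcripts of another gene. The share was 96.5% for Sprr2a2, shared mostly with Sprr2a1, 81.3% for Krtap4-13 and 50.1% for Krt6b, shared mostly with Krt6a. For Lce genes the median was 19.9%, and for Krt genes 0.300% on chromosome 11 and 0.281% on chromosome 15. How reads that match several genes were counted is not given in the sources used here, so rows at 0 in such families are stated only as listed.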

How the data were processed

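RNA of microdissected dentate gyrus was sequenced, 1 library per animal, per the labels' protocols. The deposited RPKM values were made by the authors with TopHat2 and Cufflinks on mm9, per the submitters' processing notes; no source used here gives versions, annotation, filters or read depth. A further 9 value columns match no listed sample and were not used. The members and lists were chosen with earlier results of these data known. Row levels were tested on log2(RPKM + 1) by limma 3.58.1 under R 4.3.3 (1 intercept, variance trend, two-sided, Benjamini-Hochberg, adjusted p under 0.05), and cluster interiors likewise as means beside blocks of 20 rows, without a trend. Both were tested on simulated data with independent noise of a fixed SD and no values displaced between rows, a setting unlike the deposited values. Differences between row groups used an exact sign-flip permutation test. Named rows were, per cluster, the 3 highest means, the highest of each library, rows at 1 RPKM or more throughout and the highest flanking rows. To these came 8 reference keratins and the 3 highest rows of each list, or all rows of lists of up to 4. Some of the list rows chosen in this way are not given above. Rows named beside those of this rule were chosen after their values were seen. Alternatives changed the pseudocount, level, row filter, scaling, trend, block size, interior width, row order and libraries. Promoter windows came from RefSeq (GRCm38.p6) and transcripts from GENCODE, with no coordinate carried between builds.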

Additional observations from a re-analysis of the deposited data

How the results depend on the processing

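Of 192 alternatives for main results, 166 kept their direction and side of the threshold or stayed within 1.5 times the count or 1 SD. All 148 counted for the 37 named rows did so too. The latter do not show that each row's call is stable, since the counts of calls given below changed with the setting. The wider interior and the alternatives for stretches under 1 RPKM were chosen after seeing the data. Member rows above 1 RPKM numbered 3 with a pseudocount of 0.1, 0 against 5 RPKM, and 1 to 4 in the fits that leave 1 library out, where the highest lacked replicate 1; the main count was 1. Those below numbered 107 with all rows tested, where rows at 0 enter, 3 among rows whose mean reached 0.1 RPKM, and from 10 to 15 in the fits without 1 library, where the lowest lacked replicate 1; the main count was 19. The interior deviation of Krt on chromosome 15 was -0.62 in genomic order (limma adjusted p = 0.0662), and that of Krtap on chromosome 11 ranged from -1.83 to -1.11 with a library left out. Edge minus interior turned to -0.44 (genomic order) and -0.72 (wider interior) for Krt on chromosome 15, and to -0.042 (3 positions) and -0.13 (genomic order) for Lce and Sprr. Krt minus Krtap interiors on chromosome 11 turned from -0.50 to 0.29 with the wider interior. Interior rows at 1 RPKM or more, against 0% for Krt on chromosome 11, were 8.33% (3 positions), 15.4% (genomic order), 14.04% (wider interior) and 5.56% at 0.1 RPKM. For Krt on chromosome 15, against 13.3%, they were 29.6%, 50%, 31.8% and 33.3% in the same order. For Krtap on chromosome 11 they were 50% at 0.1 RPKM against 16.7%, and for Lce and Sprr 2.38%, 4.17% and 1.15% against 0%. The low stretch on chromosome 15 held 5 rows under 0.1 RPKM, against 10. Apart from settings that change which rows are taken, the cause was not tested. Interiors of 10 positions held no rows. No paired analysis was possible because no second group exists whose libraries could be matched by number (row groups were compared within animals). What depth limits could not be computed without read counts.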
